A study of Bos indicus and Bos taurus with 17 samples.

Results

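The genes described here are those of the interleukin 1 (IL-1) family and of tumour necrosis factor (TNF) that were chosen by name: the ligands IL1A, IL1B, IL18 and TNF, the receptor antagonist IL1RN, the receptors IL1R1, IL1R2, IL1RAP and TNFRSF1B, and the protease CASP1. Of these 10 genes, 9 were found among the 21631 distinct gene names of the expression table, and CASP1 was not found by its symbol. The samples were mammary epithelial cells (MEC) taken from the milk of healthy Kashmiri and Jersey cows of 1 farm with magnetic beads carrying an antibody to KRT18, a keratin of epithelial cells. Lactation was sampled at day 15 (D15), D90 and D250. Each group had 3 labelled samples apart from Jersey D90, which had 2, and there were 17 in all. The cows were in lactation 2 or 3, and in the Kashmiri D90 and Jersey D250 groups every cow was in lactation 2. All samples of a stage were taken in the same month, so that stage and season cannot be told apart. The methods of the study describe the same cows sampled at each stage, a single lactation number and equal group sizes, whereas the labels give lactation numbers that differ between stages and fewer samples for Jersey D90, so neither the cows nor the libraries behind each value could be matched.

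IL-1 alpha and IL-1 beta are inflammatory cytokines that bind the receptor IL1R1, which then recruits the accessory chain IL1RAP and signals through the adaptor MYD88 to NF-kB. The pathway is held back by a soluble antagonist, IL1RN, that occupies IL1R1 without signalling, and by a decoy receptor, IL1R2, that binds IL-1 but carries no signalling domain. IL-1 beta and IL-18 are made as precursors that caspase-1 cleaves within the inflammasome. TNF acts through the receptors TNFRSF1A and TNFRSF1B, and together these cytokines belong to the early response of the udder to infection, with neutrophils and macrophages in milk among their main sources.

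Expression was given as FPKM, a fragment count scaled to transcript length and to the mapped fragments of the library, with 1 pooled value of the authors for each of the 6 groups. No value per cow was used, so the levels below carry no error and no difference was tested here. Neighbours in an order of levels could not be set against a spread. The study itself tested such differences with Cuffdiff. It listed IL1A among the Jersey genes that changed most between D15 and D90. The depth behind each value is unknown. A gene was counted as higher or lower when the log2 ratio of (FPKM + 1) was at least 2 in size, which is 4-fold, and at least 1 group reached 1 FPKM. In bulk samples fewer cells of a type and less RNA per cell cannot be told apart. The labelled cell type was present in its markers but was not the only one. The study checked the purity of D90 samples by qPCR. It found KRT18 and CSN2 higher, and LSP1, HBA and CD18 lower, in the sorted MEC than in unsorted milk cells. From this it proposed that contamination by other cell types was minimal. In the FPKM read here, the leukocyte marker LSP1 stood at 254 in Kashmiri D90 and 170 in Jersey D90. The 10 epithelial marker genes summed to between 98.2 FPKM in the Jersey D90 group and 5853 FPKM in the Kashmiri D15 group, and KRT18 itself, the gene of the sorting antigen, lay between 1.59 FPKM in Jersey D90 and 51.3 FPKM in Kashmiri D15. In the same table the 8 neutrophil markers found summed to between 177 FPKM in Kashmiri D15 and 13439 FPKM in Jersey D250.

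IL1B, the gene of IL-1 beta, was the most abundant of the 4 ligands in 5 of the 6 groups, the exception being Kashmiri D90. That exception rests on TNF read from an entry joined with LTA, at 24.3 FPKM. The entry named TNF alone stood at 4.12 FPKM there, below IL1B. Kashmiri MEC held 16.2 FPKM of it at D15, 16.1 at D90 and 20.5 at D250. Jersey MEC held 243 FPKM at D15, 1905 at D90 and 3290.1 at D250. Every Jersey group therefore lay above every Kashmiri group, by 15.0-fold at D15, 118-fold at D90 and 160-fold at D250. Ranked from the most abundant of all 21631 names, IL1B stood at place 21 in Jersey D250 and at place 35 in Jersey D90, against places between 2726 and 3671 in the Kashmiri groups.

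IL1A, which encodes IL-1 alpha, a form that is active without cleavage and can be released from damaged cells, was low in Kashmiri MEC, just above the 1 FPKM used here as a minimum. Its Kashmiri levels were 1.68, 1.26 and 1.5 FPKM in order of day. Its Jersey levels were 3.90, 137 and 173 FPKM. The Jersey D15 value was thus nearer to the Kashmiri values than to the later Jersey ones, and the breeds were 2.32-fold apart at D15, 108-fold at D90 and 115-fold at D250.

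IL18 encodes a cytokine that drives interferon gamma production by lymphocytes. It was measured at 1.06, 8.56 and 3.89 FPKM in Kashmiri MEC and at 4.18, 15.1 and 132 FPKM in Jersey MEC at D15, D90 and D250. The Kashmiri D90 level was above that of Jersey D15, and only the Jersey D250 value stood far from the rest, 33.9-fold above Kashmiri at the same day.

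TNF was read from an entry that the authors' table joins with its neighbour LTA, the gene of lymphotoxin alpha, so its level may hold reads of both. This entry stood at 8.53, 24.3 and 5.18 FPKM in Kashmiri MEC and at 6.36, 52.1 and 34.1 FPKM in Jersey MEC at the 3 days. Both breeds had their highest value at D90, and at D15 the Jersey level was below the Kashmiri one. A separate entry named TNF alone was lower in every group, at 3.74, 4.12 and 1.21 FPKM in Kashmiri and 4.67, 0.957 and 1.99 FPKM in Jersey, and there the Jersey D90 value was the lowest of the 6. The direction between the breeds at D15 and at D90 therefore depended on which entry was read, and the ratios below are those of the joined entry.

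The inhibitors of the pathway are the antagonist and the decoy receptor, the latter read from a joined entry. The antagonist and that joined entry stood above the IL-1 ligands in Kashmiri MEC. IL1RN was at 44.6, 88.1 and 102 FPKM in Kashmiri MEC in order of day and at 702 FPKM in Jersey MEC at D15, a 15.8-fold breed difference at that day. In the Jersey D90 and D250 groups IL1RN was listed at 0. Such zeros occurred elsewhere in the table: of the 1776 names that reached 100 FPKM in some group, 44 (2.48%) were listed at 0 in another. GAPDH, a glycolytic gene that every cell uses, was listed at 0 in 4 of the 6 groups. It stood at only 0.00903 FPKM in Jersey D15 and 0.0328 FPKM in Jersey D90. Its entry was thus near 0 in every group, unlike that of IL1RN. A listed 0 can be an estimate that failed, so no ratio is given for IL1RN in those groups, and the breeds could be compared for this gene at D15 only.

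IL1R2, the decoy receptor, was read from an entry joined with its neighbour MAP4K4, a kinase gene, so its level may hold reads of both. It was at 20.9, 27.7 and 39.1 FPKM in Kashmiri MEC and at 165, 523 and 587 FPKM in Jersey MEC at D15, D90 and D250. Every Jersey group was above every Kashmiri group, as for IL1B, but the breed difference was 7.91-fold at D15, 18.9-fold at D90 and 15.0-fold at D250.

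The signalling receptor IL1R1 had another order. Its Kashmiri levels were 16.0 FPKM at D15, 2.63 at D90 and 9.48 at D250, and its Jersey levels 7.56, 13.6 and 131 FPKM. Kashmiri D15 was second only to Jersey D250, and at D15 the Jersey level was 2.12-fold below the Kashmiri one. The accessory chain IL1RAP, which IL1R1 needs in order to signal, was instead ordered by breed and then by day. It went from 0.583 through 1.80 to 4.70 FPKM in Kashmiri MEC and from 6.13 through 33.4 to 234 FPKM in Jersey MEC, so that its breed difference was 10.5-fold at D15, 18.6-fold at D90 and 49.7-fold at D250.

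TNFRSF1B, the TNF receptor found mainly on leukocytes and endothelium, was the most abundant of the 9 genes in Kashmiri D15 and D90. It was at 79.9, 222 and 79.8 FPKM in Kashmiri MEC and at 206, 396 and 1331 FPKM in Jersey MEC. The Kashmiri D90 level was slightly above that of Jersey D15, and the breeds were 2.58-fold, 1.78-fold and 16.7-fold apart at D15, D90 and D250. IL1RAP and TNFRSF1B each had a second, weaker entry, and adding it changed no count.

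**Figure D1:**
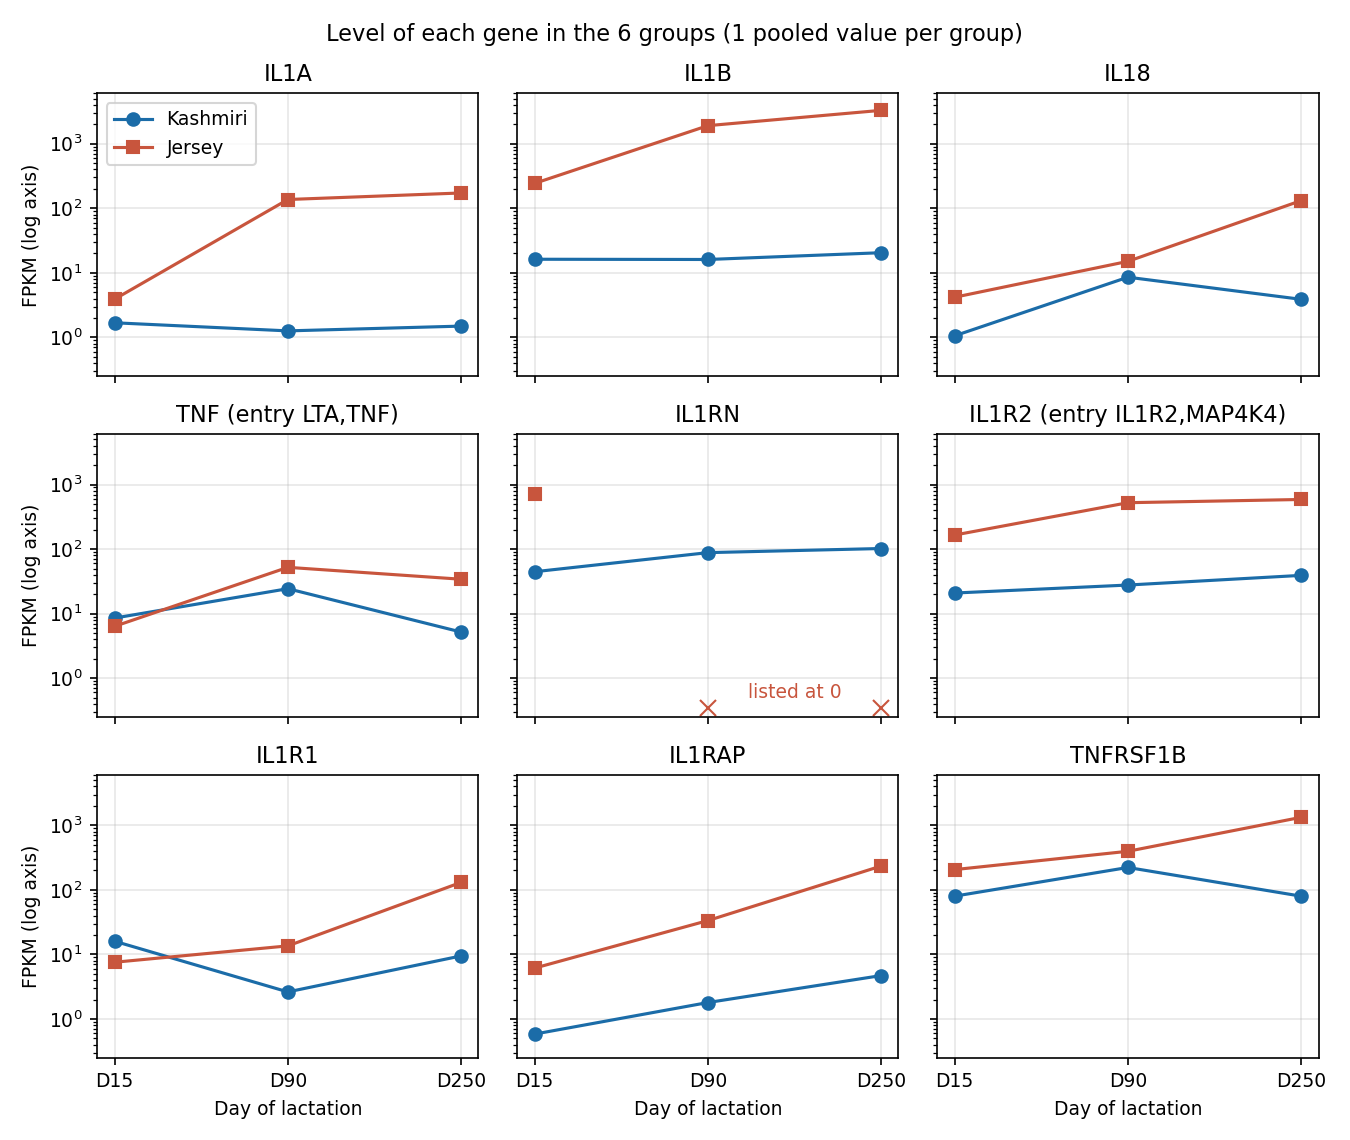
FPKM (log axis) of the 9 genes on each day of lactation in Kashmiri (blue circles) and Jersey (red squares) MEC, 1 pooled value per group without error, with crosses where IL1RN was listed at 0. IL1B, IL1A, IL1R2 and IL1RAP have all 3 Jersey points above all 3 Kashmiri points, whereas IL18, TNF, IL1R1 and TNFRSF1B have breed ranges that overlap.

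The breeds were compared at each stage, which asks how Jersey and Kashmiri MEC differ at the same day. At D15, 4 of the 9 genes were higher in Jersey and none was lower. The 4 were IL1B at a log2 ratio of 3.82, IL1RN at 3.95, IL1R2 at 2.93 and IL1RAP at 2.17. They were thus 1 ligand, the antagonist, the joined entry of the decoy receptor and the accessory chain. Over all 11202 names with at least 1 FPKM in either group, 960 passed the same limit in either direction. Of these, 723 (6.45% of names) were higher in Jersey. TNF at -0.37 and IL1R1 at -0.99 were below 0 at this day without reaching the limit, and IL1A, at 0.87, did not reach it either.

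At D90 the higher genes were 5, with a background of 6.58% of names. IL1B stood at 6.80, IL1A at 5.93, IL1R2 at 4.19, IL1RAP at 3.62 and IL1R1 at 2.01. IL1A and IL1R1 had not reached the limit at D15, and IL1R1 only just did at D90, since it fell short at 1.91 after rescaling by the upper quartile. IL18 at 0.75, TNFRSF1B at 0.83 and TNF at 1.07 were above 0 but under the limit. IL1RN, listed at 0 in Jersey, would count as lower by its listed values, a direction in which 5.17% of names went.

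At D250 all 8 genes that had a ratio were higher in Jersey, whereas 10.9% of all names were. The values were 7.26 for IL1B, 6.12 for IL1A, 5.36 for IL1RAP, 4.76 for IL18, 4.04 for TNFRSF1B, 3.87 for IL1R2, 3.65 for IL1R1 and 2.51 for TNF. The median of the 9 genes, IL1RN included at its listed 0, was 4.04, and that of all names was -0.10. With IL1RN left out it was 4.40. TNF was the gene nearest the limit and fell under it, at 1.83, when FPKM was rescaled to its sum without milk protein genes. IL1RN would again count as lower, as 1.37% of names did. The medians of the 9 genes at the earlier days were 1.36 at D15 and 2.01 at D90, against -0.13 and -0.03 over all names.

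**Figure D2:**
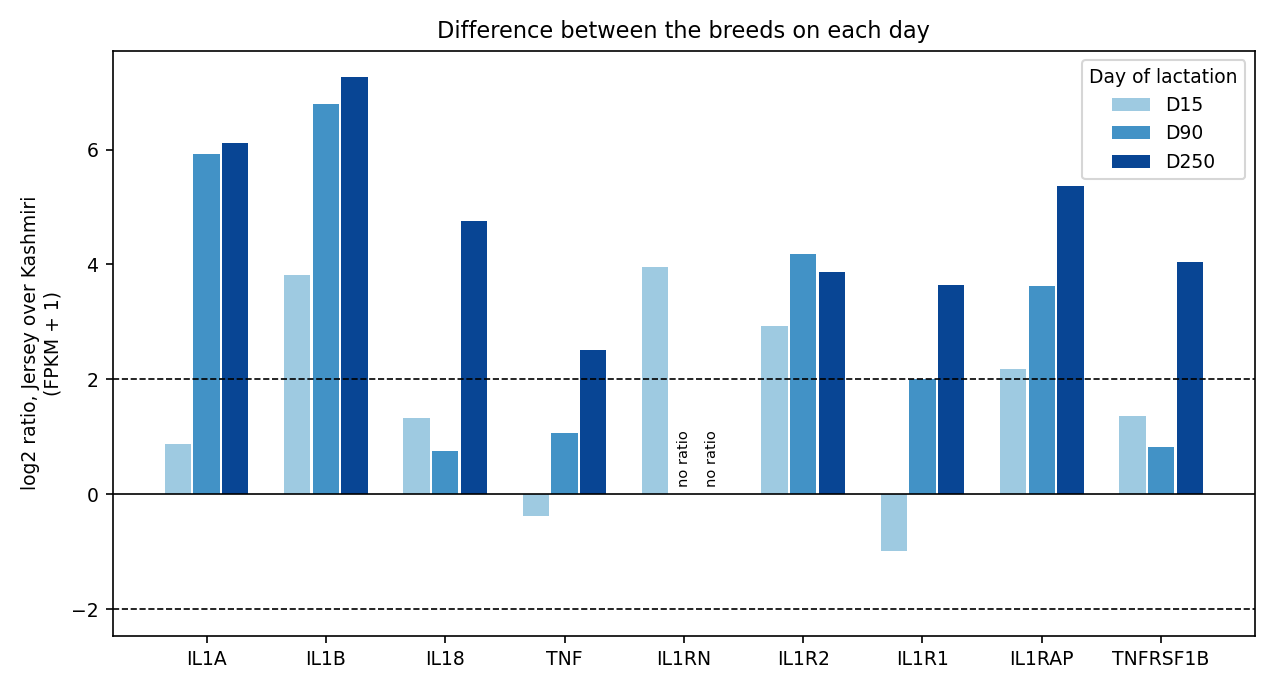
Log2 ratio of (FPKM + 1), Jersey over Kashmiri, for the 9 genes at D15, D90 and D250 (light to dark bars), with dashed lines at the limit of 2 and -2. At D250 every gene with a ratio lies above 2, from 2.51 for TNF to 7.26 for IL1B, while at D15 only IL1B, IL1RN, IL1R2 and IL1RAP do.

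Changes along lactation were examined within each breed. The 3 comparisons of a breed share groups with each other and with those between the breeds, so they are not separate evidence. In Kashmiri MEC the ligand genes IL1A and IL1B kept within a narrow range. IL1B had log2 ratios of -0.01 from D15 to D90 and 0.33 from D90 to D250, and the sign of the first turned to 0.15 after rescaling by the upper quartile. IL1A had -0.25 and 0.14 over the same steps. From D15 to D90, IL18 was higher at 2.22 and IL1R1 lower at -2.23, 1 gene in each direction, where 2.34% of names were higher and 5.16% lower. IL1R1 no longer reached the limit, at -1.92, after rescaling to the sum without milk protein genes. TNF at 1.41 and TNFRSF1B at 1.46 were both above 0.

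From D90 to D250 in Kashmiri MEC, TNF was lower at -2.03 and no gene was higher, with backgrounds of 1.12% lower and 0.859% higher. The TNF value lay on the limit and missed it after either rescaling, at -1.97 and -1.42, and when its entries were summed, at -1.995. TNFRSF1B went the same way at -1.47, and IL1R1 the other way at 1.53, or 2.16 and past the limit with the sum without milk protein genes. Between D15 and D250 no gene reached the limit in either direction. Of 11487 names, 465 passed it in either direction, and 212 of these (1.85% of names) were higher. The nearest was IL1RAP at 1.85, which passed the limit with a pseudocount of 0.1 FPKM and after either rescaling, and IL1RN, at 1.18, passed it at 2.17 with the sum without milk protein genes. Between these days TNFRSF1B at -0.00, IL1A at -0.10, TNF at -0.62 and IL1R1 at -0.70 all changed sign after rescaling to the sum without milk protein genes.

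In Jersey MEC from D15 to D90, 4 genes were higher, namely IL1A at 4.81 (35-fold), IL1B at 2.97 (7.84-fold), TNF at 2.85 (8.20-fold) and IL1RAP at 2.27 (5.45-fold), and 2.98% of names were higher. The TNF value is that of the joined entry. The entry named TNF alone went the other way, from 4.67 to 0.957 FPKM, so a change of TNF itself between these days cannot be read. IL1RN went from 702 FPKM to a listed 0, and 3.78% of names were lower. IL1R1 at 0.77 and TNFRSF1B at 0.94 were among the genes under the limit, with IL18 at 1.63 and IL1R2 at 1.66.

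From D90 to D250, 3 genes were higher in Jersey MEC, with a background of 3.72%. These were IL1R1 at 3.18 (9.64-fold), IL18 at 3.05 (8.74-fold) and IL1RAP at 2.77 (7-fold). IL1A at 0.33, IL1B at 0.79 and IL1R2 at 0.17 were under the limit over this step, TNF was at -0.60, and the signs of IL1A and IL1R2 turned after rescaling to the sum without milk protein genes. TNFRSF1B, at 1.75, was just under the limit.

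Over the whole span from D15 to D250 in Jersey MEC, 7 of the 9 genes were higher, and 9.17% of names were. They ran from IL1A at 5.15 (44.2-fold), IL1RAP at 5.04 (38.1-fold) and IL18 at 4.68 (31.4-fold) through IL1R1 at 3.94, IL1B at 3.75 and TNFRSF1B at 2.69 to TNF at 2.25. IL1R2 was at 1.82. The TNF value is again that of the joined entry. It missed the limit, at 1.62, when both of its entries were summed, and the entry named TNF alone went from 4.67 down to 1.99 FPKM. By its listed 0, IL1RN would be lower, as were 3.42% of names. The same span in Kashmiri MEC gave 1.85 or less for all 9 genes, and the gap between the breeds' changes, Jersey minus Kashmiri, was 5.25 for IL1A, 4.64 for IL1R1, 3.43 for both IL1B and IL18, and 0.95 for IL1R2. These gaps could not be tested.

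**Figure D3:**
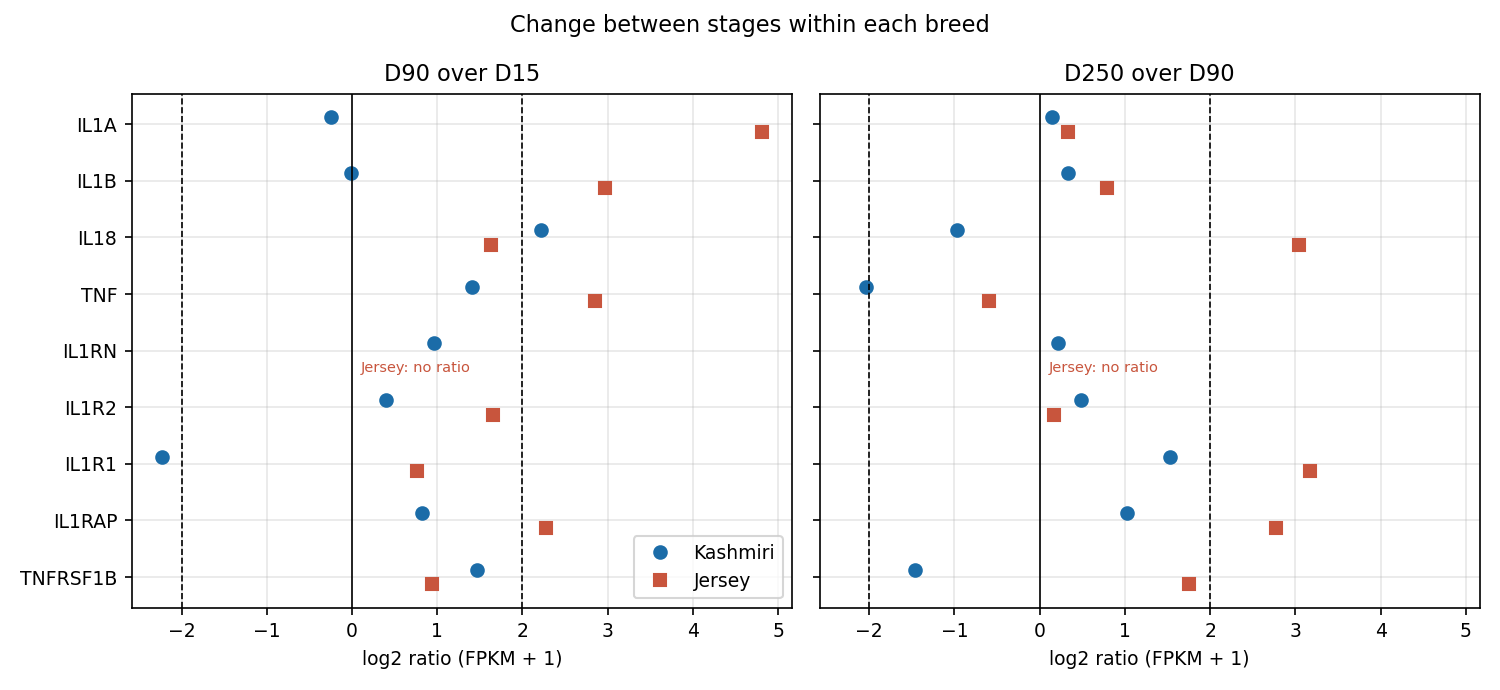
Log2 ratio of (FPKM + 1) for D90 over D15 (left) and D250 over D90 (right) in Kashmiri (blue circles) and Jersey (red squares) MEC, with dashed lines at 2 and -2. Jersey points of IL1A, IL1B, TNF and IL1RAP pass 2 on the left and those of IL18, IL1R1 and IL1RAP on the right, and the Kashmiri points lie above 2 for IL18 and below -2 for IL1R1 on the left and just below -2 for TNF on the right.

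Ratios between genes of the same group do not depend on how a group was scaled, and FPKM is given per transcript length. IL1B over IL1A, the balance of the 2 IL-1 ligands, was within a narrow range in 5 groups, at 9.64, 12.8 and 13.7 in Kashmiri MEC and at 13.9 and 19.1 in Jersey D90 and D250. Jersey D15, where IL1B was high and IL1A still low, stood apart at 62.3. IL1B over TNF was 1.90, 0.661 and 3.96 in Kashmiri and 38.2, 36.5 and 96.5 in Jersey MEC at the 3 days, so that the breed ranges did not overlap.

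The antagonist was more abundant than IL1B in each of the 4 groups where it had a value. IL1RN over IL1B was 2.74, 5.47 and 4.98 in Kashmiri MEC and 2.89 in Jersey D15. At D15 both the ligand and its antagonist were thus higher in Jersey by about the same factor, and their ratio was nearly that of Kashmiri MEC. For Jersey D90 and D250, where IL1B was highest, the listed 0 of IL1RN gives no ratio.

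The joined entry of the decoy receptor exceeded the signalling receptor in every group, although reads of MAP4K4 may add to it and the Kashmiri D15 ratio was close to 1. IL1R2 over IL1R1 was 1.30, 10.6 and 4.13 in Kashmiri MEC and 21.8, 38.6 and 4.49 in Jersey MEC, so both breeds had the highest ratio at D90 and nearly the same ratio at D250. IL1RAP over IL1R1 was 0.0364, 0.684 and 0.496 in Kashmiri and 0.811, 2.47 and 1.79 in Jersey MEC, and the accessory chain thus exceeded IL1R1 in Jersey D90 and D250 alone. TNFRSF1B over TNFRSF1A, the more widely expressed TNF receptor, was 2.54, 9.28 and 2.64 in Kashmiri and 0.938, 1.44 and 1.56 in Jersey MEC, so TNFRSF1A made up the greater relative part in Jersey. IL18BP, a secreted protein that binds and neutralises IL-18 and was read from an entry joined with RNF121, exceeded IL18 by 58.8, 35.8 and 33.8 times in Kashmiri and 77.7, 31.7 and 4.78 times in Jersey MEC, with Jersey D250 the lowest.

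**Figure D4:**
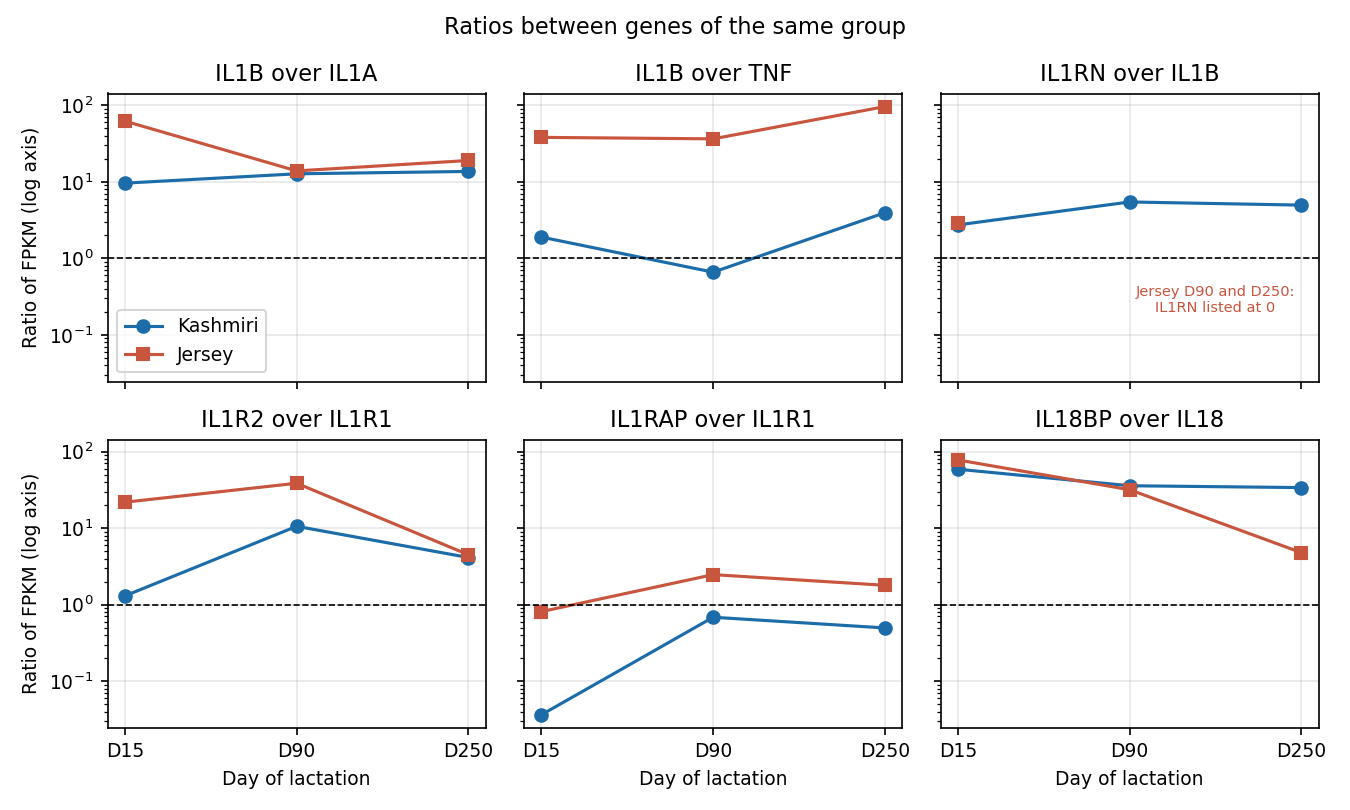
Ratios of FPKM (log axis) between genes of the same group by day of lactation in Kashmiri (blue circles) and Jersey (red squares) MEC, with a dashed line at 1. IL1B over TNF separates the breeds at each day, IL1B over IL1A is raised at 62.3 in Jersey D15, and IL18BP over IL18 is lowest at 4.78 in Jersey D250.

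Other genes of the pathway were read from lists chosen by function. Each count below stands beside a background of 6.45%, 6.58% and 10.9% of all names higher in Jersey at D15, D90 and D250. Lower in Jersey were 5.17% of names at D90 and 1.37% at D250. At D15, 960 of 11202 names passed the limit in either direction, and 723 of these were higher. Of 7 further IL-1 family ligands, none was higher in Jersey at D15, and 1 was at each later day. The gene at D250 was IL1F10, which encodes IL-38, at 6.17 FPKM against 0.0672 FPKM in Kashmiri. The gene at D90 was IL36A, named here after its values were seen, at 4.13 FPKM against 0.191 FPKM. Only 4 of the 7 reached 1 FPKM in any group, so that, apart from IL1A, IL1B and IL18, ligands of the family were scarce in both breeds.

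Of the 6 further receptors and binding proteins, 2 were higher in Jersey at D250. IL18BP was at 629 FPKM against 132 FPKM in Kashmiri, and IL18RAP, the accessory chain of the IL-18 receptor, at 45.2 FPKM against 7.70 FPKM. IL18BP was the only one higher at D15. At D90, 1 was lower in Jersey, SIGIRR, an inhibitory receptor of the family that was named after its values were seen, at 3.55 FPKM against 27.3 FPKM, a direction in which 5.17% of all names went.

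The inflammasome genes, of which 8 of 9 were found, included 5 that were higher in Jersey at D15, 4 at D90 and 4 at D250, with none lower. At D250, MEFV, the gene of the inflammasome sensor pyrin, was at 2076 FPKM against 17.0 FPKM. CASP4, an inflammatory caspase, was at 683 FPKM against 21.2 FPKM, and NLRP3, a sensor that assembles with PYCARD, at 139 FPKM against 3.95 FPKM. NLRC4, part of an inflammasome that responds to bacterial flagellin, was at 17.7 FPKM against 1.79 FPKM. These 4 were also the ones higher at D90. At D15 they were NLRP3, MEFV and CASP4 with NLRP1 and PYCARD, the last 2 named after their values were seen.

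Among 11 genes of the signalling complex at the receptor, none was higher in Jersey at D15, 2 were at D90 and 3 at D250, and none was lower. MYD88, the adaptor, was at 969 FPKM against 50.1 FPKM at D250, TAB2, which links TRAF6 to the kinase TAK1, at 73.1 FPKM against 15.3 FPKM, and IRAK2, a kinase of the complex, at 60.6 FPKM against 6.82 FPKM. MYD88 and IRAK2 were those at D90.

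The TNF axis held 13 entries, 1 of them the joined entry of TNF itself. Of these, 1 was higher in Jersey at D15, 5 at D90 and 9 at D250, and none was lower. The joined entry of BIRC2 and BIRC3, inhibitors of apoptosis, was at 1212 FPKM against 37.8 FPKM at D250, TNFRSF1A at 851 FPKM against 30.3 FPKM, LTB, the gene of lymphotoxin beta, at 518 FPKM against 64.2 FPKM, and TNFAIP3, an inhibitor of NF-kB signalling, at 267 FPKM against 25.1 FPKM. TNFRSF1A was the gene higher at D15.

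Of 8 genes known to be induced by these cytokines, 5 were found, and 3, 4 and 5 of them were higher in Jersey at D15, D90 and D250. NFKBIA, which encodes an inhibitor of NF-kB and is itself induced by NF-kB, was at 371, 4932 and 3889.8 FPKM in Jersey against 56.0, 120 and 71.7 FPKM in Kashmiri MEC. The entry of the adhesion molecule ICAM1, joined with ICAM4 and ICAM5, was at 487 FPKM against 8.88 FPKM at D250, the chemokine CCL20 at 69.4 FPKM against 0.326 FPKM, and PTGS2, the inducible cyclooxygenase, at 36.6 FPKM against 0.734 FPKM.

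Markers of cell types also differed between the groups, and not all in the same direction. Of the 12 neutrophil markers 8 were found, and 7 of the 8 were higher in Jersey at each of the 3 days, with none lower. Their sum was 177, 493 and 611 FPKM in Kashmiri and 4766, 5355 and 13439 FPKM in Jersey MEC, a breed difference of 27.0-fold, 10.9-fold and 22-fold. The calcium-binding protein gene S100A8, abundant in neutrophils, was at 36.4, 74.3 and 106 FPKM in Kashmiri and 1652, 1276 and 3034 FPKM in Jersey MEC, and MPO, a granule enzyme gene transcribed mostly in neutrophil precursors, stayed between 0.255 and 2.80 FPKM. The 9 macrophage markers summed to 102, 463 and 476 FPKM in Kashmiri and 870, 2103 and 1845 FPKM in Jersey MEC, and the number of them higher in Jersey was 6, 4 and 1 in order of day. The sum of the 10 epithelial markers went the other way, at 5853, 712 and 2600.1 FPKM in Kashmiri and 2685, 98.2 and 1393 FPKM in Jersey MEC. Of these markers, 1 was lower in Jersey at D15, 5 at D90 and 1 at D250. Without reaching the limit, 2 were above Kashmiri at D15. They were KRT8, in an entry joined with KRT4, at 135 against 55.5 FPKM, and CLDN4 at 110 against 41.3 FPKM. At D90, 1 was above Kashmiri, CDH1 at 5.46 against 5.05 FPKM. None of the neutrophil, macrophage and epithelial markers found was listed at 0 in any group. The 5 pan-leukocyte markers summed to between 547 FPKM in Kashmiri D250 and 2345 FPKM in Jersey D250, the 7 T and NK cell markers to between 79.3 FPKM in Jersey D250 and 1325 FPKM in Kashmiri D90, and the 5 B cell markers to between 8.25 FPKM in Jersey D250 and 77.8 FPKM in Kashmiri D90. As Jersey over Kashmiri in order of day, the pan-leukocyte sum stood at ratios of 2.98, 1.30 and 4.29. Its markers did not all go 1 way, since 1 of the 5 was below Kashmiri at D15 and 3 were at D90. LCP1 alone passed the limit, and did so at each day. The T and NK cell sum stood at ratios of 0.685, 0.112 and 0.264. The B cell sum stood at 1.55, 0.150 and 0.281. Of 4 red blood cell genes 2 were found and neither reached 1 FPKM.

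Set against the neutrophil sum of the same group, the genes separated. IL1B amounted to 9.20%, 3.26% and 3.35% of that sum in Kashmiri and to 5.10%, 35.6% and 24.5% in Jersey MEC, so Jersey was below Kashmiri at D15, by a ratio of 0.554, and above it 10.9-fold at D90 and 7.30-fold at D250. IL1A gave the same order, at a ratio of 0.0859 at D15, 9.99 at D90 and 5.25 at D250. IL1RAP was at 0.390, 1.71 and 2.26. TNF at 0.0276, 0.197 and 0.299, IL1R1 at 0.0175, 0.476 and 0.627 and TNFRSF1B at 0.0955, 0.164 and 0.758 were lower in Jersey relative to the neutrophil sum at every day. IL18 stood at 0.147 and 0.162 before reaching 1.54 at D250, IL1R2 was above 1 at D90 only, and IL1RN was at 0.583 at D15. The part of the neutrophil and other leukocyte markers in the breed and stage differences was not tested.

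**Figure D5:**
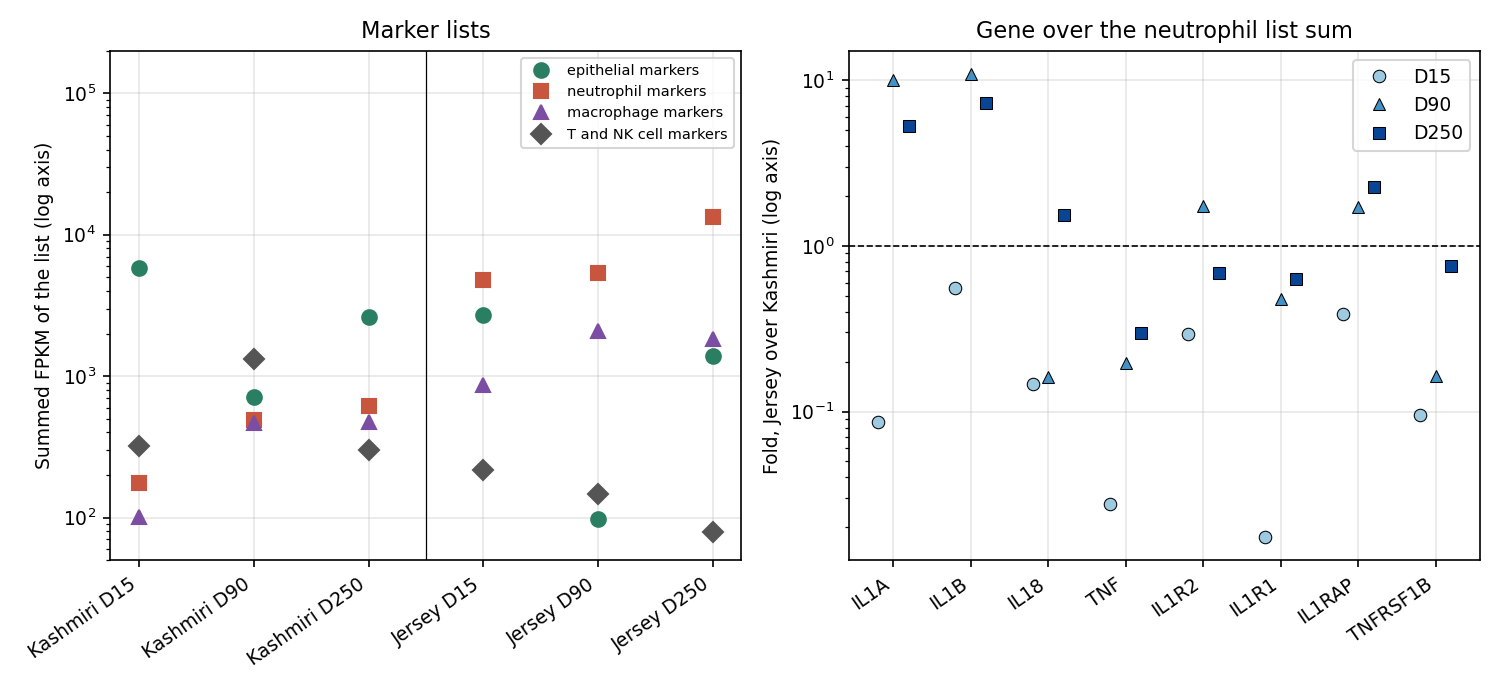
Left, summed FPKM (log axis) of 4 marker lists in the 6 groups, and right, the ratio of 8 genes to the neutrophil sum as Jersey over Kashmiri (log axis) at D15, D90 and D250, with a dashed line at 1. The neutrophil sum is between 4766 and 13439 FPKM in Jersey and at most 611 FPKM in Kashmiri MEC, and IL1A and IL1B lie below 1 at D15 but above 5 at D90 and D250.

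The genes whose profile over the 6 groups was most like that of IL1B and of IL1R1 were sought among 6121 names with at least 10 FPKM in some group and no listed 0, by the root mean square difference of centred log2 (FPKM + 1) values. For IL1B these were MEFV at 0.27, STEAP4, a metalloreductase gene, at 0.31 and NOS2, the inducible nitric oxide synthase, at 0.39. MEFV stood at 12.5, 13.3 and 17.0 FPKM in Kashmiri and at 120, 1192 and 2076 FPKM in Jersey MEC. For IL1R1 they were CSF2RB, the shared receptor chain for GM-CSF, IL-3 and IL-5, at 0.34, TARS, a threonyl-tRNA synthetase gene, at 0.52 and LIMK2, a kinase that acts on the actin cytoskeleton, at 0.56. CSF2RB was at 109, 21.9 and 51.9 FPKM in Kashmiri and 39.1, 53.9 and 457 FPKM in Jersey MEC, with the same low Kashmiri D90 and high Jersey D250 values as IL1R1. The likeness rests on 6 pooled values that share groups and depth, and no gene was sought for IL1RN because of its listed zeros.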

How the data were processed

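Milk MEC were isolated with KRT18 antibody beads, and stranded mRNA libraries were sequenced. The authors trimmed the reads (Trimmomatic), aligned them with Bowtie and TopHat to build UMD3.1 of the cattle genome, and estimated expression with Cufflinks and Cuffdiff. The deposited table holds their FPKM, 1 pooled value for each breed and stage, over 61264 entries, of which 25121 carry a name. Where a name had several entries, the one with the highest mean was used. The column named local was read as Kashmiri, and stages 1, 2 and 3 as D15, D90 and D250. Which libraries entered each value is not shown. Pooled values give no error, depth or test, and a failed estimate can appear as 0.

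Log2 ratios used a pseudocount of 1 FPKM, and names under 1 FPKM in both groups were left out of a comparison. Lists were summed over distinct entries. Of each pathway list, at most 4 genes past the limit in Jersey over Kashmiri at D250 were named, those with the highest mean FPKM. The genes and lists were chosen with earlier results of these data known. Values were computed with pandas 2.3.3 and numpy 2.4.6 in Python 3.11.15 and drawn with matplotlib 3.10.9, and the counting of genes past the limit was tested on simulated data.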

Additional observations from a re-analysis of the deposited data

How the results depend on the processing

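No median and no ratio past the limit changed sign under a pseudocount of 0.1 FPKM, 2 rescalings, summed entries, no filter on low values, a log2 limit of 1, and 2 alternatives chosen after seeing the data (genes listed at 0 left out, and TNF and IL1R2 left out). Counts of genes past the limit that moved by over 1.5 times were all in Kashmiri MEC. D90 over D15 went from 2 to 1 with the sum without milk protein genes and to 4 with a limit of 1. D250 over D90 went from 1 to 0 with the upper quartile, with summed entries and without TNF and IL1R2, and to 4 with a limit of 1. D250 over D15 went from 0 to 1 with a pseudocount of 0.1 and with the upper quartile, to 2 with the sum, and to 3 with a limit of 1. With the sum, the median log2 ratio went from 0.21 to 0.90 in Kashmiri D250 over D90, from 0.32 to 1.28 in Kashmiri D250 over D15, and from 4.04 to 3.29 in Jersey over Kashmiri at D250. Without TNF and IL1R2, it went from 0.79 to 1.75 in Jersey D250 over D90 and from 4.04 to 4.76 in Jersey over Kashmiri at D250. Without genes listed at 0, it went from 2.01 to 2.81 in Jersey over Kashmiri at D90. The 2 rescalings shifted the median of all names by between -0.64 (Jersey over Kashmiri at D250) and 0.85 (Kashmiri D250 over D15). Of 76 ratios of single genes, 70 moved little with the pseudocount of 0.1, 76 with the upper quartile, 54 with the sum and 74 with summed entries. No paired analysis was possible because each group has 1 pooled value, and for the same reason no sample could be left out in turn. The causes of these shifts were not tested.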

Other observations

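Set against the sum of the 9 macrophage markers, IL1B was higher in Jersey at each day, by 1.75-fold at D15, 26.0-fold at D90 and 41.4-fold at D250, and against the sum of the 5 pan-leukocyte markers by 5.02-fold, 90.8-fold and 37.4-fold. IL1A over the macrophage sum was at a ratio of 0.271 at D15 and was 23.9-fold and 29.8-fold higher in Jersey at D90 and D250. IL18 over the same sum was at 0.462 and 0.387 at D15 and D90 and at 8.74 at D250. The macrophage sum itself was higher in Jersey by 8.55-fold, 4.54-fold and 3.87-fold at the 3 days. Its breed difference was thus largest at D15, whereas those of IL1B and IL18 were largest at D250. All 9 markers were above Kashmiri at D15 and D90, but only 6 were at D250, where CD14 alone passed the limit. MSR1, C1QA and C1QB were below Kashmiri at D250, at ratios of 0.469, 0.496 and 0.605. Most of the Jersey D250 sum of 1845 FPKM was CD68 at 996 FPKM and CD14 at 636 FPKM. The ratios to this sum at D250 therefore rest mainly on those genes.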
